A study of Homo sapiens with 4 samples.

Results

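Antigen presentation genes were followed in MDA-LM2 and in parental MDA-MB-231 through their skipped exons. The parental line is established from a human triple-negative breast cancer. MDA-LM2 was derived from it and metastasises to the lung far more readily. Both lines were grown untreated in DMEM with fetal bovine serum, and total RNA of 2 samples of each line was sequenced. A skipped-exon event is a middle exon with the exon before it and the exon after it, and each deposited table gives the event's reads for a line with no replicate named. The 2 samples of a line are therefore taken as 1 pooled library, so that no replicate error is known and no test between the lines was possible. The labels do not say whether they came from separate cultures. The 9 genes were HLA-B, HLA-C, HLA-E, HLA-F, CD74, CIITA, TAPBP, TAP1 and PSME2. They were chosen by function with earlier results of these data in view, among them the event reads of CD74, so that their read levels are a description. An event belonged to a gene when its middle exon lay inside the gene on the same strand. This gave 20 of 44447 events and 19 of 37641 exons, in 7 of the 9 genes. CD74 had 8 events, CIITA 4, TAPBP 3, PSME2 2, and HLA-B, HLA-C and HLA-F 1 each. The rule found no event of HLA-E, a class I chain that presents leader peptides, or of TAP1, a subunit of the peptide transporter, and these 2 genes are not analysed here.

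MHC class I molecules show peptides of the cell's own proteins at the surface, where T cells and natural killer cells read them. The proteasome cuts the proteins, the TAP transporter moves the peptides into the endoplasmic reticulum, and tapasin, the product of TAPBP, holds the empty class I chain beside the transporter. MHC class II molecules carry peptides from endosomes. The invariant chain CD74 fills their groove until then, and CIITA is the coactivator that switches on the class II genes and CD74.

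The transmembrane exon of a class I chain anchors the protein in the membrane, and its loss can give a soluble chain. The skipped exons of HLA-B and HLA-C were these exons. They are shown because their inclusion levels differed from each other in both lines. Capitals mark the 57 bases that code for the most hydrophobic stretch of 19 residues, which are residues 308 to 326 of HLA-B and 310 to 328 of HLA-C. Both sequences are of hg38, on the minus strand, read from GENCODE release 29 transcripts, and both are exon 5 of 8. The HLA-B exon has 117 nt at chr6:31355107-31355223 and the HLA-C exon 120 nt at chr6:31269966-31270085.
HLA-B: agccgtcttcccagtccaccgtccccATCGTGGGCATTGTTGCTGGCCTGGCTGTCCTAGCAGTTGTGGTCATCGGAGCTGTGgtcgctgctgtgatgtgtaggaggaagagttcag
HLA-C: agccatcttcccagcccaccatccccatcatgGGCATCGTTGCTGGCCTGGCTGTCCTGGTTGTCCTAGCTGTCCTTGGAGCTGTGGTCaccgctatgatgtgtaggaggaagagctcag

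In a global alignment of these 2 exons, 103 of 123 columns were identical, 11 held a mismatch and 9 a gap. Of the runs of 30 bases, 0 of 88 in the HLA-B exon and 0 of 91 in the HLA-C exon were found in GENCODE transcripts of other genes. Transcripts annotated with the same exon at the same position were left out of this search, whatever their gene. The HLA-C exon also lies inside the annotated HLA-B gene. The alleles of these cell lines need not match the reference sequence, which class I genes vary from more than most genes do. Values of class I genes are uncertain for that reason and because the chains resemble each other.

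The CD74 exon of 192 nt (chr5:150403121-150403312, minus strand, exon 7 of 9) codes for the thyroglobulin type-1 domain that separates the long form of the invariant chain from the common short form. It is shown because it was the CD74 exon with reads for its skipping.
CD74: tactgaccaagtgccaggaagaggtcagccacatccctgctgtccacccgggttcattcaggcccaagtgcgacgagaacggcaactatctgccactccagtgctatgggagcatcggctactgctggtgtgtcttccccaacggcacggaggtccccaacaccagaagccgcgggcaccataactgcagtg

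The event tables listed 39981 events in LM2 and 43626 in parental cells. Event reads, here the reads that fit the isoform with the middle exon, the isoform without it, or both, came to 17366605 in LM2 and 21716937 in parental cells. Levels are given as event reads per 1000000 of these totals (RPM), at the event of each gene with most reads, with a 95% exact Poisson interval that covers counting error only. Over 9615 genes with at least 20 event reads, the median was 221 reads in LM2 and 300 in parental cells, and the median log2 ratio of RPM, LM2 over parental, was -0.12. Genes known in this type of breast cancer cell were present, with 38259 reads in LM2 and 54542 in parental cells for CD44 and 2883 and 3916 for AXL. EGFR had 897 reads in LM2 and 539 in parental cells. These were the 3 of 7 such markers with an event. Estrogen and progesterone receptor genes had at most 1 read in LM2 and 2 in parental cells at any event. Of 8 luminal markers 4 were measured: KRT8 had 6187 reads in LM2 and 5877 in parental cells, ERBB2 170 and 567, GATA3 13 and 57, and CDH1 11 and 13.

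Reads of the class I heavy chains were several-fold lower in LM2 than in parental cells. HLA-C had 1997 event reads in LM2 and 7347 in parental cells, or 115 RPM (110.002 to 120.147) in LM2 and 338 RPM (331 to 346) in parental cells. HLA-B had 800 reads in LM2 and 5777 in parental cells, or 46.1 RPM (42.9 to 49.4) and 266 RPM (259 to 273). HLA-F, a less polymorphic class I chain, had 174 reads in LM2 and 726 in parental cells, or 10.0 RPM (8.59 to 11.6) and 33.4 RPM (31.0 to 36.0). All 3 chains were lower in LM2, and none of their counting intervals overlapped between the lines, which was so for 29.4% of all measured genes in this direction. The ratio of LM2 over parental was 0.340 (95% exact conditional interval 0.323 to 0.357) for HLA-C, 0.173 (0.161 to 0.186) for HLA-B and 0.300 (0.253 to 0.354) for HLA-F. As with every ratio here, these intervals cover counting error only. In RNA from many cells, fewer cells that express a gene and less of its RNA per cell cannot be told apart.

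Reads of CD74 and CIITA, of the class II arm, were also lower in LM2. CD74 had 15 event reads in LM2 and 658 in parental cells, or 0.864 RPM (0.483 to 1.42) in LM2 and 30.3 RPM (28.0 to 32.7) in parental cells. That is a 35.1-fold lower level in LM2, with a ratio of 0.0285 (0.0159 to 0.0474). All 8 CD74 events were lower in LM2, from 1 read in LM2 against 121 to 15 against 658, with overlapping reads among the events. CIITA had 19 reads in LM2 and 114 in parental cells, or 1.09 RPM (0.659 to 1.71) and 5.25 RPM (4.33 to 6.31), a ratio of 0.208 (0.121 to 0.341). Its other 3 events had 4 to 5 event reads in LM2 and 7 to 13 in parental cells, and the intervals of their ratios all included 1. CD74 and CIITA reached the minimum of 20 reads through the parental library. Counting also the reads that fit neither isoform at the same event, a setting added after the data were seen, CD74 had 543 reads in LM2 and 1734 in parental cells, a ratio of 0.407 (0.369 to 0.448). On that count CIITA had 66 reads in LM2 and 191 in parental cells, a ratio of 0.449 (0.334 to 0.597), and the ratios of HLA-B, HLA-C and HLA-F were 0.185, 0.336 and 0.302.

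The ratios of TAPBP and PSME2 lay nearer to that of the median gene. TAPBP had 933 event reads in LM2 and 1485 in parental cells, or 53.7 RPM (50.3 to 57.3) and 68.4 RPM (64.9 to 71.9), a ratio of 0.786 (0.723 to 0.853). PSME2, the beta subunit of the proteasome activator that favours peptides for class I, had 528 reads in LM2 and 557 in parental cells. That is 30.4 RPM (27.9 to 33.1) in LM2 and 25.6 RPM (23.6 to 27.9) in parental cells, a ratio of 1.19 (1.05 to 1.34). Neither gene was 2-fold different.

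**Figure D1:**
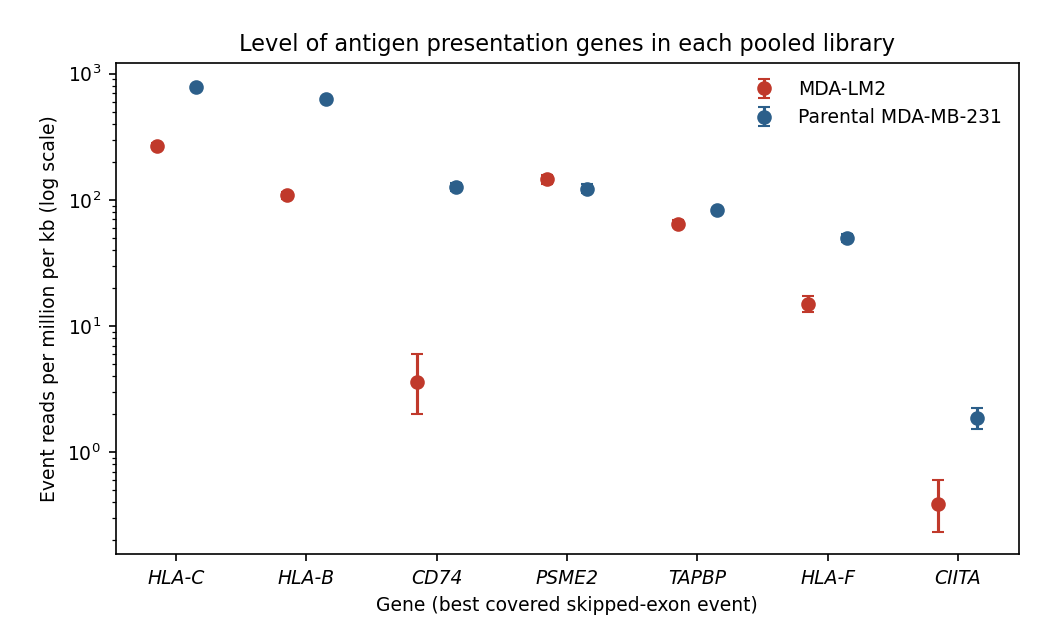
RPM per kb of the event's 3 exons (log scale) for each gene, LM2 left of parental, with points for the pooled library of each line and bars for the 95% exact Poisson interval. HLA-C, HLA-B, CD74, HLA-F and CIITA are lower in LM2, while for TAPBP and for PSME2 the points of the lines lie closer to each other.

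Of the 7 genes, 5 were at least 2-fold lower in LM2 and 0 at least 2-fold higher, where 9.57% of the 9615 measured genes were at least 2-fold lower and 3.36% at least 2-fold higher. Their median log2 ratio was -1.74, against -0.12 over all measured genes. Relative to the median gene, the log2 ratios were -5.01 for CD74, -2.41 for HLA-B, -2.14 for CIITA, -1.61 for HLA-F, -1.43 for HLA-C, -0.22 for TAPBP and 0.37 for PSME2. Because the genes were chosen with read levels known, the count describes these genes and tests nothing. Per kb of the event's exons, so that genes can be compared, the order in LM2 was HLA-C (268 RPM per kb), PSME2 (145), HLA-B (108), TAPBP (64.6), HLA-F (14.98), CD74 (3.61) and CIITA (0.387). In parental cells it was HLA-C (789), HLA-B (624), CD74 (127), PSME2 (123), TAPBP (82.3), HLA-F (49.97) and CIITA (1.85). Only CD74 (117 to 137) and PSME2 (113 to 133) had overlapping intervals among neighbours in the parental order, and no neighbours overlapped in the LM2 order. These intervals cover counting error only. The place of CD74 in the LM2 order depended on leaving out the reads that fit neither isoform. With them counted, and scaled to reads of all 4 classes, CD74 (33.1 RPM per kb) lay above HLA-F (4.18) in LM2. The other genes kept their LM2 order, and the parental order was unchanged.

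**Figure D2:**
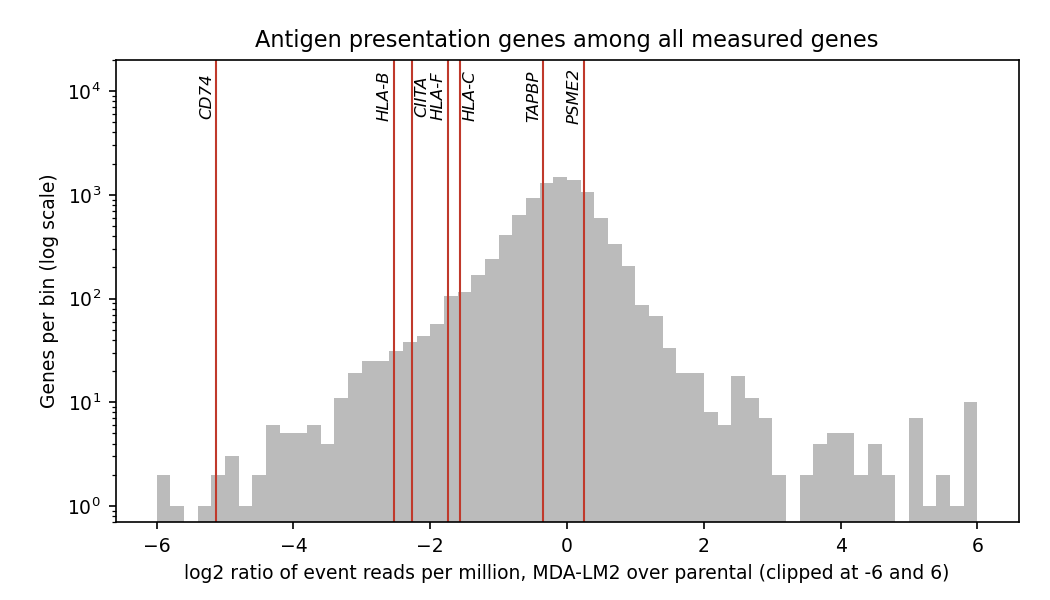
Number of genes (log scale) by log2 ratio of RPM, LM2 over parental, for all 9615 measured genes, with lines at the 7 antigen presentation genes and ratios beyond the axis limits put in the end bins. CD74 at -5.13 lies in the far left tail, HLA-B, CIITA, HLA-F and HLA-C between -2.53 and -1.56, and TAPBP and PSME2 in the centre.

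The ratio of CD74 was the fifth lowest of 8705 genes with at least 50 event reads over both lines, a value of the reads in view when CD74 was chosen. Its ratio stood at percentile 0.0624 of all measured genes, and at percentile 5.64 when reads of all 4 classes were counted. The 5 genes with the nearest log2 ratio, over these 2 pooled libraries only, were RNF43, a ubiquitin ligase of Wnt receptors (7 reads in LM2 and 261 in parental cells), ZNF641 (1 and 52), the splicing regulator RBM47 (3 and 186), LINC01085 (5 and 146) and MTMR8 (2 and 52). Their log2 ratios differed from that of CD74 by 0.23 to 0.75. All 5 reached the minimum of 50 reads through the parental library, and their ratios rest on few LM2 reads.

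Further genes of the pathway were taken from a list of 67 genes, of which 40 were measured. At least 2-fold lower in LM2 were 6 of the 40 and at least 2-fold higher 0, beside the 9.57% and 3.36% of all measured genes, with a median log2 ratio of -0.23. Of the class I chains and related molecules 4 of 8 were measured. HLA-G, a class I chain known from the placenta, had 214 reads in LM2 and 581 in parental cells, a ratio of 0.461 (0.392 to 0.540). MR1, which presents vitamin metabolites, had a ratio of 0.511 and MICA, a stress ligand of natural killer cells, 1.00.

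Both measured class II genes were lower, out of 11 in the list. HLA-DMA, a chain of the class II peptide exchanger, had 6 event reads in LM2 and 139 in parental cells, a ratio of 0.0540 (0.0195 to 0.120). HLA-DPA1 had 4 reads in LM2 and 51 in parental cells, a ratio of 0.0981 (0.0257 to 0.267). HLA-DMB, HLA-DQA1 and HLA-DQB1 were listed in the parental table only, with at most 59, 6 and 7 event reads. Of the class II processing enzymes and ligases 1 of 5 measured genes was 2-fold lower, the endosomal protease CTSS with 15 reads in LM2 and 86 in parental cells (0.218, 0.117 to 0.380). The measured class II genes and CTSS passed the read minimum through the parental library.

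The other parts of the pathway had few or no genes past 2-fold. None of 6 measured peptide loading genes (median log2 ratio -0.08), 7 proteasome genes (0.19) or 9 transactivators and promoter factors (-0.25) was 2-fold lower or higher. NLRC5, the class I transactivator related to CIITA, had 15 reads in LM2 and 30 in parental cells, with a ratio of 0.625 whose interval (0.313 to 1.20) included 1. RFX5, which binds class II promoters, stood at 0.716 (0.527 to 0.966), and IRF1 at 1.08 (0.968 to 1.21). In the interferon gamma pathway 1 of 7 genes was 2-fold lower, JAK1 with 11 reads in LM2 and 36 in parental cells (0.382, 0.175 to 0.767), at an event where 2286 and 3572 reads fit neither isoform. JAK1 and NLRC5 passed the read minimum through the parental library. IFNGR1, a chain of the interferon gamma receptor, stood at 0.740 (0.589 to 0.926), and the median of this list was -0.26.

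**Figure D3:**
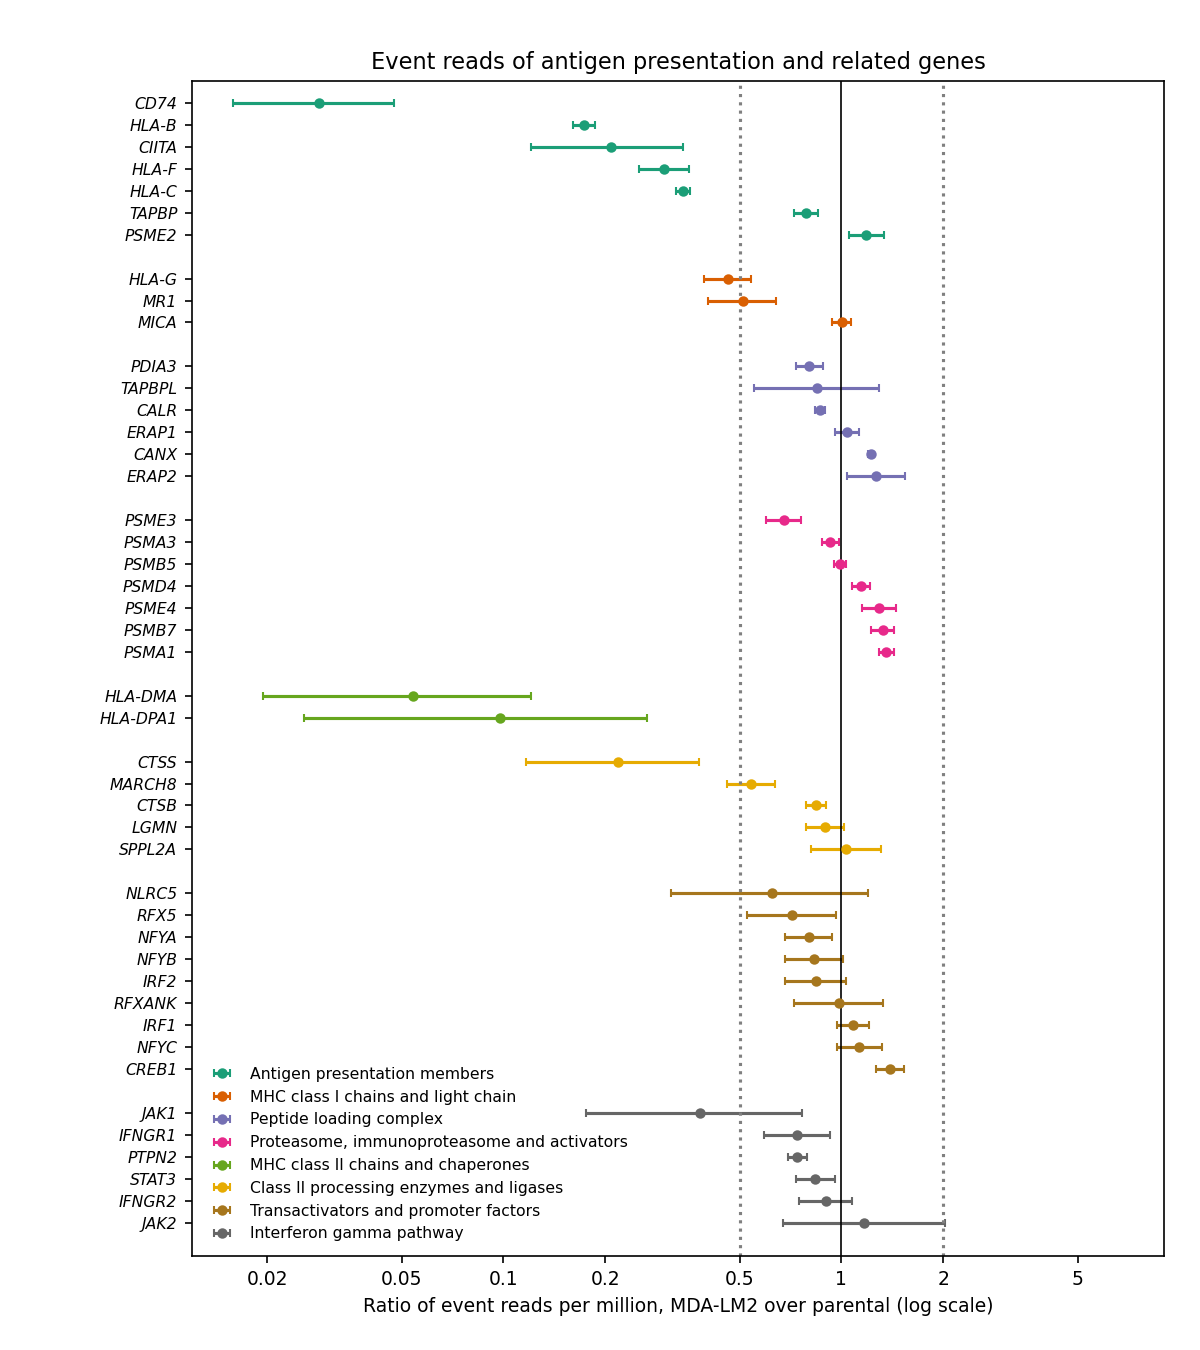
Ratio of RPM, LM2 over parental (log scale), for the 7 antigen presentation genes and 38 measured genes of the pathway list by group, with bars for the 95% exact conditional interval of counting error and dotted lines at 2-fold. The lowest points are CD74, HLA-DMA and HLA-DPA1, and no gene lies past the upper dotted line.

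Immune cells carry class II molecules and CD74 at high levels, so their markers were read beside these values. None of 5 T cell genes and none of 9 macrophage and dendritic cell genes reached 20 event reads. PTPRC, the common leukocyte antigen, had at most 5 reads in LM2 and 3 in parental cells, CD3D 1 and 2, and LYZ 6 and 7. Of the 5 B cell genes 1 was measured, CD22, with 115 reads in LM2 and 250 in parental cells, while MS4A1 was listed in the parental table only, with at most 2 event reads. The part of such cells in the values above was not tested.

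Promoters were read for the members because class I and class II genes are known to share a regulatory module. The module holds a Y box that binds NF-Y, and class I and peptide loading genes often hold an interferon-stimulated response element. RefSeq promoters (GRCh38.p14, 250 bases before to 50 after the start) were found for 7 members, all but HLA-E and CIITA, and of the 2 listed for TAP1 the first in the table was counted. The Y box core CCAAT, on either strand, was in 5 of these 7 and in 34.6% of 35116 promoters of that length. The core GAAANNGAA of the response element, on either strand, was in 5 of the 7 and in 8.11% of all. The other TAP1 promoter held neither motif, and with it each count was 4 of 7. HLA-B, HLA-C, HLA-F and CD74 held CCAAT, with the copy nearest the start 56, 56, 57 and 53 bases before it. TAPBP and PSME2 held no CCAAT in this window, and their copies of GAAANNGAA nearest the start began 14 and 28 bases before it. CD74 and HLA-F also held GAAANNGAA, 172 and 155 bases before the start. These are matches of letters, and binding was not measured. Whether the motifs relate to the read levels was not tested, and the genes were chosen with read levels known. The class I promoters printed below resemble each other, so they are not separate observations. The stretches of 110 bases below, from position -135 to -26 relative to the start, are shown for the CCAAT copies nearest the start. CCAAT and its reverse complement ATTGG are in capitals. Which copy is the Y box of the module was not tested, and copies at similar positions need not be the same element. The stretches are chr6:31357205-31357314, chr6:31272118-31272227 and chr5:150412936-150413045 on the minus strand for HLA-B, HLA-C and CD74, and chr6:29723299-29723408 on the plus strand for HLA-F.
HLA-B: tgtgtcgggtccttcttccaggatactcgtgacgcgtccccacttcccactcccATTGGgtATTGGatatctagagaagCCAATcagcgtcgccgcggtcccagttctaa
HLA-C: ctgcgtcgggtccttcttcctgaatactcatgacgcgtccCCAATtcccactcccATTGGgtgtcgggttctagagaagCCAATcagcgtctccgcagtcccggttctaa
HLA-F: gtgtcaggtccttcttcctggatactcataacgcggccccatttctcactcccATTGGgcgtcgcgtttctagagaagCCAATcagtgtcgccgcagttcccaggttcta
CD74: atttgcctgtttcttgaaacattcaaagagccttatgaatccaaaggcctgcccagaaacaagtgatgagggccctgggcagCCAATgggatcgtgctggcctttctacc

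No skipped exon of these genes was called different in inclusion between the lines. The inclusion level is the share of transcripts with the middle exon, as MISO's posterior mean from 0 to 1, printed with its deposited interval of unstated level. In the authors' deposited table, no member event had a Bayes factor above 1.6, where a call needed 10 or more and a change in level of 0.2 or more. Differences reached 0.38 in size, and 5 of 20 events had a difference of at least 0.2, all in CD74 or CIITA with at most 7 informative reads (inclusion plus exclusion) in LM2. Only 3 of 19 exons, both of PSME2 and the 171-nt exon of TAPBP, passed the minimum of 10 informative reads per line with both kinds of read seen. Of these 3, 0 were called, against 0.921% of 14109 exons called higher and 0.326% called lower in LM2. The median difference over the 20 events was -0.06, against 0 over all compared events. CD74 gave 8 of the 20 events and CIITA 4, with 1 to 19 informative reads each in LM2. The median over the 20 events therefore rests largely on thinly covered events.

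The transmembrane exons of HLA-B and HLA-C had intermediate and low deposited levels in both lines. For HLA-B the level was 0.54 (0.45 to 0.63) in LM2, set against 0.60 (0.56 to 0.63) in parental cells. For HLA-C it was 0.11 (0.09 to 0.14) in LM2, set against 0.12 (0.11 to 0.13) in parental cells. The lines overlapped in both cases, with Bayes factors of 0.27 and 0.04 in the authors' deposited table. The reads for skipping did not match these levels. Exclusion reads were 0 in both genes and both lines, beside 168 inclusion reads in LM2 and 1325 in parental cells for HLA-B, and 110 and 420 for HLA-C. A count of 0 allows exclusion reads up to 1.79% of inclusion plus exclusion reads for HLA-B in LM2 and 0.226% in parental cells, and up to 2.73% and 0.714% for HLA-C.

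Inclusion reads were also set beside the reads that fit both isoforms. The deposited levels are estimated from these same reads, so a match between them is no separate evidence. Per nt, the HLA-C exon had 0.150 times (0.123 to 0.182) as many inclusion reads as its neighbours had reads that fit both isoforms in LM2, and 0.156 times (0.141 to 0.172) in parental cells. For HLA-B this quotient was 0.702 (0.589 to 0.834) in LM2, set against 0.786 (0.739 to 0.836) in parental cells. The intervals of the quotient did not overlap between the 2 genes in either line, and overlapped between the lines in both genes. Whether mismatches between the lines' alleles and the reference remove reads from these exons was not tested.

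**Figure D4:**
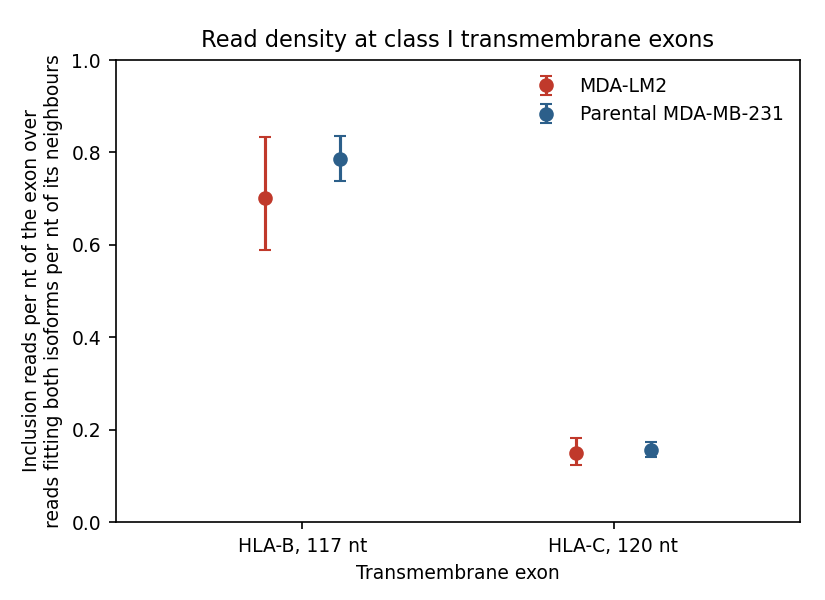
Inclusion reads per nt of the transmembrane exon over reads that fit both isoforms per nt of the neighbouring exons, for HLA-B and HLA-C, LM2 left of parental, with 95% exact conditional intervals of counting error. HLA-B lies at 0.702 in LM2 and 0.786 in parental cells, and HLA-C at 0.150 in LM2 and 0.156 in parental cells.

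HLA-F was measured at its 276-nt exon 4 of 7 (chr6:29725031-29725306, plus strand), which codes for the alpha 3 domain, and its transmembrane exon of 117 nt was the neighbour after it. The level was 0.99 (0.95 to 1.00) in LM2, set against 1.00 (0.99 to 1.00) in parental cells. Inclusion reads were 170 in LM2 and 654 in parental cells, with 0 exclusion reads in each. Of the 247 runs of 30 bases in this exon, 68 also occurred in transcripts of 11 other genes, HLA-H and HLA-E among them, so part of its reads may be shared.

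In CD74 the 192-nt exon of the thyroglobulin domain was the only one with exclusion reads. After the 88-nt exon 6, its level was 0.33 (0.03 to 0.94) in LM2, set against 0.46 (0.38 to 0.54) in parental cells. LM2 had 1 read of each kind, whereas parental cells had 131 for inclusion and 44 for exclusion. In parental cells 25.1% (exact Clopper-Pearson 95% interval 18.9 to 32.2) of inclusion plus exclusion reads were exclusion reads, so both forms were present there. This is a share of reads and not of transcripts, since the 192-nt exon itself adds inclusion reads. With 2 such reads in LM2, a difference was not detectable at this depth. The same exon, joined after the 63-nt exon 4, had 1 inclusion read in LM2 and 121 in parental cells, and no exclusion read in either.

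The transmembrane segment of CD74, residues 53 to 71, lies in the 173-nt exon 2 of 9 (chr5:150407152-150407324). It stood at 0.79 (0.44 to 0.97) in LM2, set against 0.97 (0.88 to 1.00) in parental cells, with 6 inclusion reads in LM2, 159 in parental cells and 0 exclusion reads in each. The 63-nt exon 4 was at 0.80 (0.51 to 0.99) in LM2, set against 0.99 (0.98 to 1.00) in parental cells, and the 96-nt exon 5 at 0.87 (0.53 to 0.99) and 0.99 (0.97 to 1.00). The 80-nt exon 3 and the 88-nt exon 6 were at 0.79 and 0.69 in LM2 and at 0.99 and 0.88 in parental cells, and the 444-nt form that keeps the intron between exons 2 and 3 at 0.63 and 0.96. Each of these had 0 exclusion reads in both lines, and the lower LM2 levels came with 5 to 14 inclusion reads. None had a Bayes factor above 1.6 in the authors' deposited table.

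The CIITA events were thinly covered. The 2689-nt middle exon of the best covered event (chr16:10906499-10909187, plus strand), annotated in a retained-intron transcript, was at 0.73 (0.20 to 0.99) in LM2, set against 0.79 (0.46 to 0.99) in parental cells, from 19 and 114 inclusion reads. A 205-nt coding exon that ends at the same base was at 0.61 (0.23 to 0.91) in LM2, set against 0.82 (0.54 to 0.98) in parental cells. The 2689-nt exon also holds a 1651-nt coding exon that starts at its first base. Its inclusion reads therefore need not come from a transcript with the retained intron. The 147-nt coding exon 7 of 20 was at 0.39 in LM2 and 0.44 in parental cells, and its 387-nt longer form at 0.52 and 0.29, with 1 to 2 inclusion reads each. No CIITA event had an exclusion read in either line, and all of these intervals overlapped.

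In TAPBP the 54-nt exon was almost never used. Its level was 0.01 (0.00 to 0.03) in LM2, set against 0.01 (0.00 to 0.02) in parental cells, with no inclusion read in either line and exclusion reads numbering 66 in LM2 and 85 in parental cells. Of the 25 runs of 30 bases in this exon, 24 also occurred in transcripts of 288 other genes. The 261-nt exon 3 of 7 (chr6:33313217-33313477) was at 0.99 (0.98 to 1.00) in LM2, set against 1.00 (0.99 to 1.00) in parental cells, with 0 exclusion reads. The 171-nt exon 2 of 7 (chr6:33313694-33313864) holds part of the most hydrophobic stretch of tapasin, residues 7 to 25, which lies at the signal peptide and not at the membrane anchor. Its level was 0.72 (0.61 to 0.84) in LM2, set against 0.57 (0.49 to 0.66) in parental cells, and the authors' deposited table gave it a Bayes factor of 1.27. LM2 had 151 inclusion and 2 exclusion reads, and parental cells had 166 for inclusion and 0 for exclusion. Exclusion reads were 1.31% (Clopper-Pearson 0.159 to 4.64) of informative reads in LM2 and 0% (0 to 2.20) in parental cells, and these intervals overlapped. Of the inclusion reads plus the reads that fit both isoforms, inclusion reads made up 18.6% in LM2 and 14.4% in parental cells. The deposited level is estimated from the same reads, so this is no separate evidence for its direction.

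Both PSME2 exons were near full inclusion, with a level of 0.99 in each line. The 33-nt exon 2 of 11 (chr14:24146208-24146240) had 1 exclusion read beside 493 for inclusion in LM2, and 3 beside 490 in parental cells. The 55-nt exon 9 of 11 (chr14:24143975-24144029) had 1 beside 415 in LM2, and 0 beside 493 in parental cells. Of 26 runs of 30 bases in the 55-nt exon, 10 also occurred in transcripts of 3 other genes, a PSME2 pseudogene among them.

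**Figure D5:**
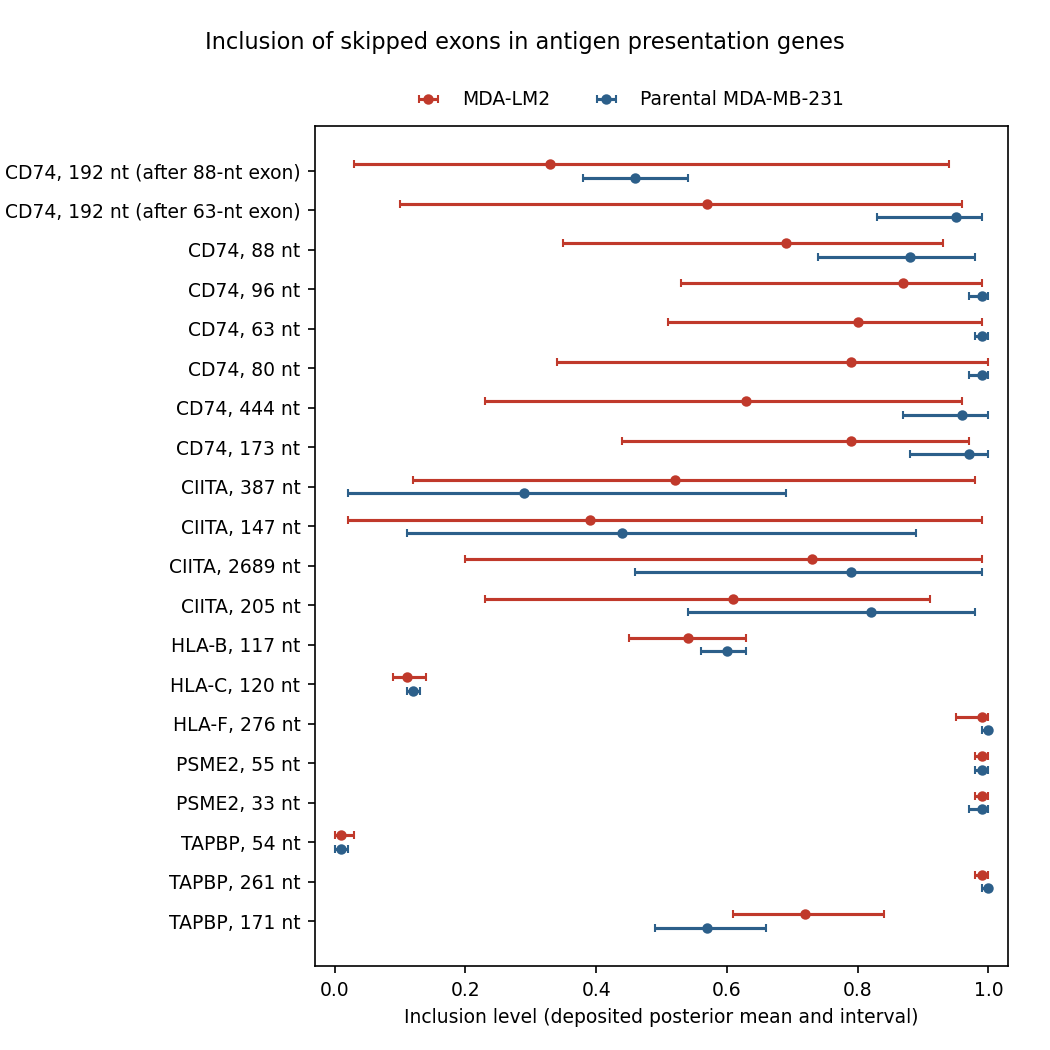
Deposited inclusion level with its interval for the 20 events, named by gene and length of the middle exon, LM2 above parental. For each exon of HLA-B, HLA-C, HLA-F and PSME2 and the 54-nt and 261-nt TAPBP exons, LM2 lies close to parental. The wide LM2 intervals belong to CD74 and CIITA.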

How the data were processed

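RNA of 2 samples per line was sequenced from ScriptSeq v2 libraries, per the labels' protocols, and aligned with STAR 2.7 to hg38, per the submitters' processing notes. MISO made the event tables, per the file headers. Its version, settings, event annotation and any pooling of replicates are details not given in the sources used here. Both deposited tables give the inclusion level as a fraction from 0 to 1 and raw read counts per event in 4 classes. In the authors' deposited comparison the difference is a score, LM2 minus parental, and the Bayes factor is a ratio that sets a change in level against no change. Reads that fit neither isoform (74.7% in LM2, 75.7% in parental cells) were left out of event reads, and every listed event had at least 20 reads over all classes.

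Genes came from GENCODE release 29. An event inside several genes went to the gene with most transcripts that hold its exon, so the HLA-C event, which also lies inside the annotated HLA-B gene, counts under HLA-C. Genes were read at their event with most event reads over both lines, among events listed in both tables, and needed at least 20. The ratios and their intervals were tested on simulated data that held counting error only, so the test covers no other source of error. Intervals and limits cover counting error only, and a count of 0 was given a limit of 3 reads. Transmembrane stretches were the most hydrophobic windows of 19 residues (Kyte-Doolittle), after residue 200 in HLA chains. The members and gene lists were chosen with earlier results of these data known. Named were all member events, pathway genes past 2-fold and others chosen after their values were seen (MR1, MICA, NLRC5, RFX5, IRF1, IFNGR1, HLA-DMB, HLA-DQA1, HLA-DQB1), and the 5 genes nearest CD74. Some items are not reported here, though counts over a list include them. Python 3.11.15, pandas 2.3.3, SciPy 1.17.1, NumPy 2.4.6 and matplotlib 3.10.9 were used.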

Additional observations from a re-analysis of the deposited data

Results flagged for a closer look

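Reads that fit neither isoform, which event reads leave out, were compared in CD74 and CIITA because their ratio lay over 2-fold from that of the event reads. At the best covered CD74 event they were 528 in LM2 and 1076 in parental cells, a ratio of 0.646 (0.581 to 0.718) when scaled to all such reads, where event reads gave 0.0285. Another CD74 event, around the 192-nt exon after the 88-nt exon, shares no base with it and had 531 such reads in LM2 and 971 in parental cells. At the CIITA event they were 47 in LM2 and 77 in parental cells, a ratio of 0.804 (0.547 to 1.17), where event reads gave 0.208. What these reads are was not tested.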

How the results depend on the processing

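No paired analysis was possible because the tables carry no replicate, and for the same reason no replicate could be left out. The count of 5 genes at least 2-fold lower in LM2 and 0 higher was the same with inclusion plus exclusion reads only, scaling to the median gene, reads summed over all events, a limit of 1.5-fold, a minimum of 100 reads and reads of all 4 classes. Log2 ratios ranged over these settings from -5.13 to -1.297 for CD74, -2.36 to -1.15 for CIITA, -2.75 to -2.41 for HLA-B, -1.70 to -1.43 for HLA-C and -1.74 to -1.61 for HLA-F. The upper ends for CD74 and CIITA came from reads of all 4 classes. The minimum of 100 reads removed none of the 7 genes, and a limit of 1.5-fold could not lower the count of 5. HLA-B, HLA-C and HLA-F had 1 event each, so summing over events could not change their ratios. Scaled to the median gene, 7.87% of all genes were 2-fold lower and 4.41% higher, and at 1.5-fold 21.1% were lower and 9.37% higher without that scaling. The count of 0 called exons was the same with a Bayes factor of 5 or 20, a difference of 0.1, 20 informative reads, no read minimum (4 exons tested), every event counted, and levels from inclusion and exclusion reads alone. No member event had a Bayes factor above 1.6, so only the last of these settings, which used no Bayes factor, could have changed the count.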
